A study of Mus musculus with 384 samples.

Results

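Ly6a, Ly6c1, Ly6d and Ly6e, 4 of the 46517 gene rows of the expression table, were followed across single hair follicle cells of mouse back skin. They were taken by symbol as the Ly6 rows around the gene of Sca-1, the surface protein on which the cells had been sorted. The proteins of this family are small, carry an LU domain and are tied to the outer membrane leaflet by a glycosylphosphatidylinositol (GPI) anchor. Ly6a encodes Sca-1, which marks cells of the upper follicle and the interfollicular epidermis and is scarce on bulge stem cells. Ly6c1 encodes a Ly-6C antigen best known from monocytes and endothelial cells. Ly6d is a keratinocyte and lymphoid progenitor antigen, and Ly6e is an interferon-inducible member.

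The series measured 384 cells at postnatal day 70, each amplified by the Smart-seq2 full-length protocol. The group labelled cKO carried Sox9-CreER, NFIBfl/+, NFIXfl/fl and R26-YFPfl/fl, and the group labelled dKO carried Sox9-CreER, NFIBfl/fl, NFIXfl/fl and R26-YFPfl/fl. Floxed Nfix and the Cre are therefore common to both groups, there is no group with intact Nfi genes, and the comparison of genotypes adds the loss of the remaining Nfib allele. Sox9-CreER acts in Sox9-expressing cells after tamoxifen, and recombination of the floxed alleles was not checked here. Every cell was sorted as DAPI-negative, integrin α6-positive and YFP-positive, and as either negative or positive for Sca-1. After 6 cells with fewer than 1000 genes at 1 TPM (transcripts scaled by length and to a fixed total per cell) were left out, 337 Sca-1-negative and 41 Sca-1-positive cells remained.

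The Sca-1-negative cells numbered 71, 47 and 65 on cKO plates 1, 2 and 3 and 93 and 61 on dKO plates 1 and 2. The 22 Sca-1-positive cKO cells lie on plate 3 and the 19 dKO cells on plate 2, all in well rows A and B, while the Sca-1-negative cells of those plates lie in rows C to H. Gate and well row therefore cannot be told apart on these plates. Median genes detected ran from 4770 to 5199 over the groups. No animal is named in the labels. Each genotype and gate was therefore treated as 1 sample, cells are not replicates, and no test, p-value or standard error is given. All cells are labelled male, but Xist averaged 51.4, 59.8 and 44.5 TPM on cKO plates 1 and 2 and dKO plate 1 and at most 0.102 TPM on cKO plate 3 and dKO plate 2, where Y-linked RNA was read. The row Rn18s-rs5, a ribosomal RNA, took 55.3% to 61.5% of the TPM by group, so all other values are scaled down by a share that varies.

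The cells matched a basal keratinocyte in both gates: Krt5 reached 10 TPM in 92.3% to 100% of cells and Itga6 in 76.9% to 94.7%. Cd34, a defining surface marker of bulge stem cells, reached 10 TPM in 24.6% to 32.4% of the Sca-1-negative cells per plate. It did so in 0 of 22 and 0 of 19 Sca-1-positive cells, which allows shares of up to 13.6% and 15.8%. Cd34 RNA, which defines the labelled cell type, was thus absent or under these limits in the Sca-1-positive cells.

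The 4 genes lie on chromosome 15 of GRCm38 (GENCODE M21). Ly6d spans bases 74762056 to 74763620 on the minus strand, Ly6e 74955051 to 74959905 on the plus strand, Ly6a 74994877 to 74998031 on the minus strand and Ly6c1 75044018 to 75048830 on the minus strand. Between Ly6d and Ly6f the annotation lists 16 protein-coding genes, of which 7 had at least 1 cell at 10 TPM and 5 had at least 10 such cells. The fifth beside the members was D730001G18Rik, with 10 cells. Ly6i, Ly6c2, Ly6g and Ly6f, which lie between or beside the members, had none among the 378 cells.

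Sequence likeness within the cluster limits 2 of the members. Of the 37-base stretches in the Ly6a transcripts, 28.1% also occur in another gene. Those shared with Ly6c1 make up 19.8% of all Ly6a stretches. Of all Ly6c1 stretches, 42.2% occur elsewhere, with 28.2% in Ly6c2 and 14.3% in Ly6a. The deposited values come from RSEM, which divides reads that match several genes by a model, so the split between Ly6a and Ly6c1 is uncertain. For Ly6d the share was 0% and for Ly6e 0.221%.

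RefSeq promoter windows (GRCm38.p6, 250 bases before to 50 bases after the start) matched 1 of the 4 members, Ly6c1. It is shown with that of Ly6c2, its closest copy by shared stretches, because Ly6c1 reached 10 TPM in some of these cells and Ly6c2 in 0. Capitals mark TTGGC, the core letters bound by NFI proteins, searched on both strands.
Ly6c1, chr15:75048788-75049087, minus strand: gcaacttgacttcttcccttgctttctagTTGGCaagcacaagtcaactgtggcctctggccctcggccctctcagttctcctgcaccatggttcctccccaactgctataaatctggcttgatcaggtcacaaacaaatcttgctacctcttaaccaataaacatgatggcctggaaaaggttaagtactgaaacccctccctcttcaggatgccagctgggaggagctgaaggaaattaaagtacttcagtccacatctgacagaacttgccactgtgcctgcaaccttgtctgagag
Ly6c2, chr15:75111922-75112221, minus strand: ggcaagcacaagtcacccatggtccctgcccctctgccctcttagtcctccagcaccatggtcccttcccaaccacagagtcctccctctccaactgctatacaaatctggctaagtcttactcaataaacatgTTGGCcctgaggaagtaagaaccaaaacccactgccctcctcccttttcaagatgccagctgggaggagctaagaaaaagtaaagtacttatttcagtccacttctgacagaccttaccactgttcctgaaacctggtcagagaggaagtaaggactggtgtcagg
Aligned end to end, the windows have 208 identical bases, 58 mismatches and 68 gap columns. They are 62.3% identical with the gap columns counted as differences. Each holds TTGGC 1 time, at base -221 from the start in Ly6c1 and at base -116 in Ly6c2, and 46.7% of 32851 promoter windows of this length hold it. The Ly6c2 window opens with letters that match Ly6c1 from within its TTGGC onward. It starts too late to show whether Ly6c2 holds that copy, so the positions do not compare matching bases. The letters TTCNNNGAA, a site of interferon-gamma signalling, were found in neither and occur in 8.30% of the windows. These matches describe letters and not binding.

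In Sca-1-negative cells, Ly6e and Ly6d were abundant, Ly6a intermediate and Ly6c1 rare. The mean of the 5 plates was 181.4 TPM for Ly6e and 181.2 TPM for Ly6d. Ly6a averaged 28.8 TPM, rank 1334 among the 25099 genes above 0, and Ly6c1 2.90 TPM at rank 9266. The levels of Ly6d and Ly6e did not differ beyond their spread over plates, whereas each plate had Ly6a below both and Ly6c1 below Ly6a. TPM is scaled by transcript length, so the levels of Ly6d and Ly6e can be set side by side. Those of Ly6a and Ly6c1 also carry the uncertain split of shared reads.

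Ly6a RNA in Sca-1-negative cells averaged 20.1, 47.6 and 19.7 TPM on cKO plates 1 to 3, and 30.9 and 25.95 TPM on dKO plates 1 and 2. The median cell was at 0 on every plate, and the highest cells stood at 270, 817, 245, 254 and 304 TPM in that order. The single cell at 817 TPM lies on cKO plate 2, the plate with the highest mean, and the next on that plate was at 301 TPM. Among Sca-1-positive cells the lowest, median and highest values in cKO were 0, 55.01 and 254 TPM. Those in dKO were 0, 97.9 and 372 TPM, and the means were 68.4 and 124.6 TPM. The gates overlapped in both genotypes, with the bulk of the Sca-1-positive cells high and most Sca-1-negative cells at 0.

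**Figure D1:**
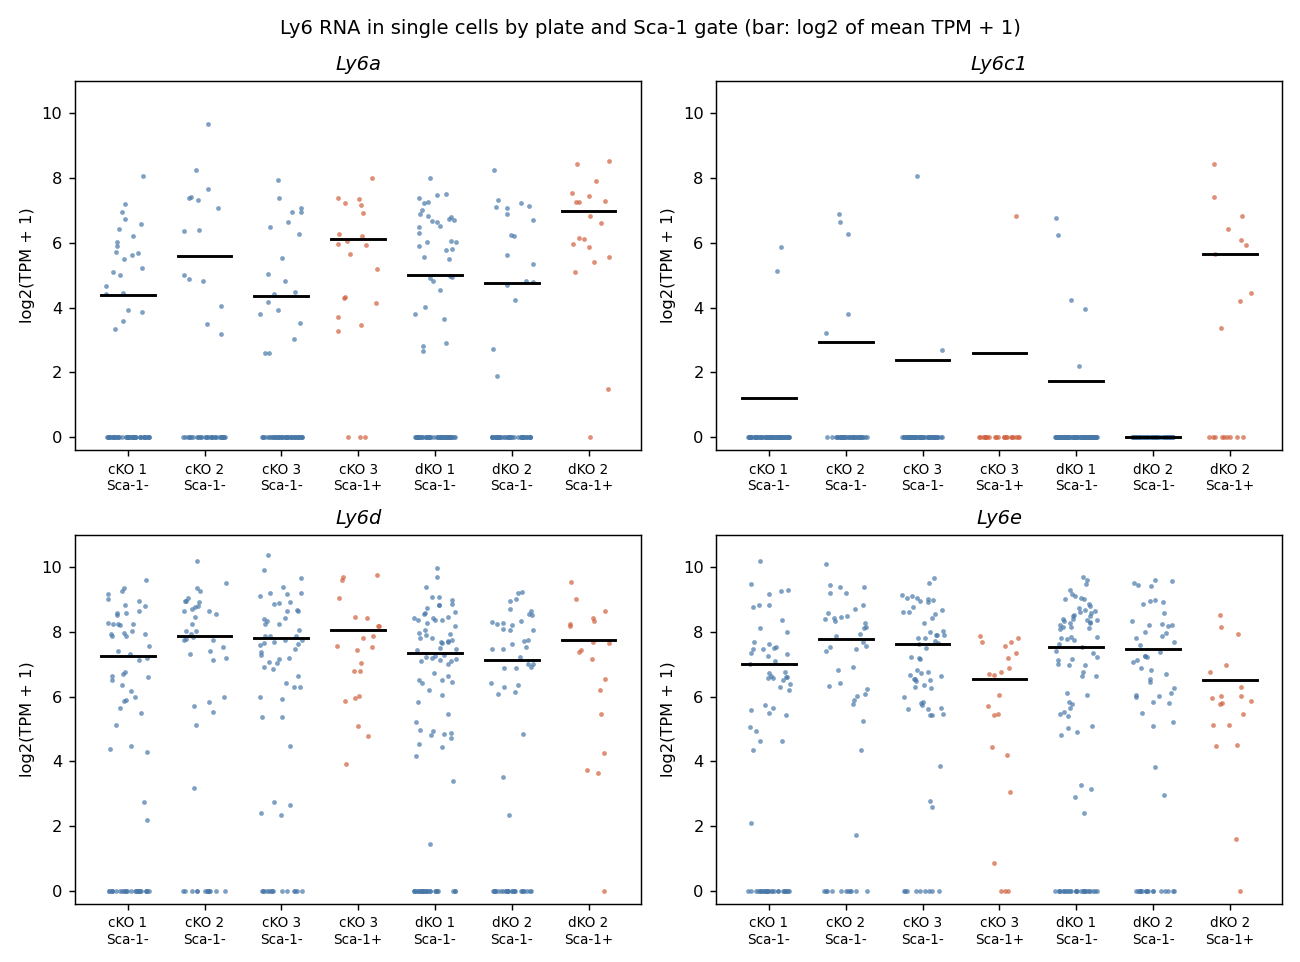
Log2(TPM + 1) of each member (vertical axis) in single cells by plate and Sca-1 gate (horizontal axis), 1 point per cell, blue for Sca-1-negative and orange for Sca-1-positive; the bar is the log2 of mean TPM + 1. Ly6a medians are 0 on all 5 Sca-1-negative plates against 55.01 and 97.9 TPM in Sca-1-positive cells, and Ly6c1 is above 0 in 10 of 19 Sca-1-positive dKO cells.

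Because the cells were sorted on the Ly6a product, the Ly6a difference between gates checks the labels and is not a finding. The ratio of mean TPM + 1 between Sca-1-positive and Sca-1-negative cells of 1 plate was 3.36 (log2 1.75) in cKO and 4.66 (log2 2.22) in dKO. A size rule asked for a ratio no smaller than 2, or no larger than 0.5, and for mean log2(TPM + 1) to differ by 1 or more, in genes averaging at least 5 TPM over the 2 groups. Ly6a met it in both genotypes. Over all measured genes the rule was met upward by 3.00% in cKO and 4.29% in dKO, and downward by 5.80% and 10.4%. Of the genes past the rule 34.1% were higher in cKO and 29.2% in dKO. These shares were 49.3% and 50.4% once each gate of each plate was scaled by its own size factor. Such factors are set by median ratios between groups, so they draw the split of genes towards equal parts by design. The Ly6a log2 ratio under that scaling was 1.86 and 2.45.

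The label and the RNA did not coincide cell by cell. A Sca-1-positive cell had the higher Ly6a value in 79.9% of all pairs with a Sca-1-negative cell in cKO and in 86.6% in dKO, where 50% would mean no separation. In cKO, 3 of 22 Sca-1-positive cells were listed at 0, and in dKO 1 of 19. On each of these plates 8 Sca-1-negative cells stood at or above the median of the Sca-1-positive cells, of 65 in cKO and 61 in dKO. Where only cells above 0 were paired, the Sca-1-positive cell was higher in 57.9% and 64.2% of pairs, so the gates differed more in how many cells had Ly6a RNA than in its level there.

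At 10 TPM or more, Ly6a RNA was read in 30.3% of 337 Sca-1-negative cells (exact 95% binomial interval 25.4% to 35.5%, counting error only). The plates gave 30.99%, 29.8% and 26.2% in cKO and 35.5% and 26.2% in dKO. Rows A and B against other rows gave 45.5% against 28.3% on cKO plate 1 and 37.5% against 25.8% on cKO plate 2. On dKO plate 1 they gave 21.7% against 40%. The Sca-1-positive shares were 81.8% (59.7% to 94.8%) in cKO and 89.5% (66.9% to 98.7%) in dKO. At a threshold of 50 TPM the share on cKO plate 3 was 12.3% in Sca-1-negative and 50% in Sca-1-positive cells. TPM keeps no read depth, so a value of 0 can be a molecule that was missed.

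**Figure D2:**
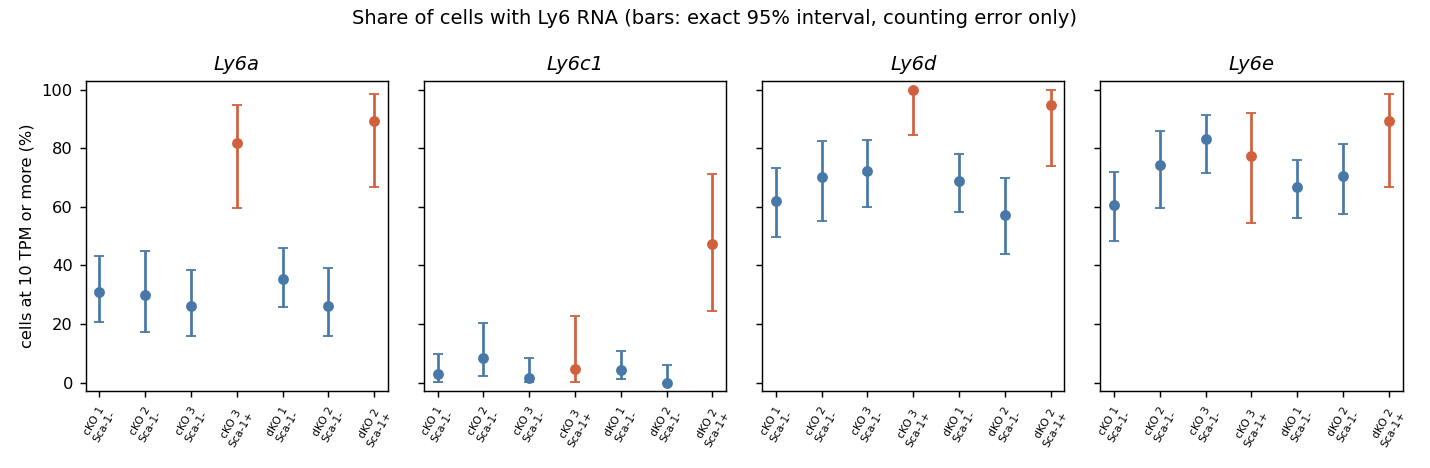
Percentage of cells at 10 TPM or more (vertical axis) for each member by plate and gate (horizontal axis), with exact 95% binomial intervals that cover counting error only. Ly6a spans 26.2% to 35.5% on the Sca-1-negative plates against 81.8% and 89.5% in Sca-1-positive cells, and Ly6c1 stands at 47.4% in Sca-1-positive dKO cells and at most at 8.51% elsewhere.

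Ly6c1 was the member that differed most between Sca-1-positive cells of the 2 genotypes. In dKO, 10 of 19 Sca-1-positive cells were above 0, at 347, 171.4, 112.7, 85.5, 66.9, 60.6, 49.1, 21.04, 17.5 and 9.31 TPM. In cKO, 1 of 22 Sca-1-positive cells was above 0, at 111.6 TPM. All 61 Sca-1-negative dKO cells of the same plate were listed at 0, which allows a share of up to 4.92%, so no fold between gates is given for dKO. In cKO the means of 5.07 and 4.17 TPM in the 2 gates were too low to count as measured. At 10 TPM or more the shares were 47.4% (24.4% to 71.1%) in Sca-1-positive dKO cells and 4.55% (0.115% to 22.8%) in Sca-1-positive cKO cells. The intervals cover the counting of cells within 1 plate each and say nothing of the spread between animals or plates.

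Mean Ly6c1 was 49.5 TPM in Sca-1-positive dKO and 5.07 TPM in Sca-1-positive cKO cells, a ratio of 8.32 on the mean TPM + 1 scale (log2 3.06). It was the only member of the 4 past the size rule upward in this comparison, which 3.11% of measured genes passed upward and 4.17% downward. Of the genes past the rule 42.8% were higher, and 54.4% with size factors. With a pseudocount of 10 TPM the Ly6c1 log2 ratio was 1.98. Each side is 1 plate of 1 genotype, so plate, animal and genotype cannot be told apart here.

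In the Sca-1-negative gate Ly6c1 reached 10 TPM in 11 of 337 cells (3.26%, interval 1.64% to 5.77%). By plate these were 2, 4 and 1 cells in cKO and 4 and 0 in dKO. The plate means of 1.29, 6.69, 4.17, 2.33 and 0 TPM rest on those few cells, and on cKO plate 3 on 1 cell at 266 TPM. Wells in rows A and B of the 3 plates without Sca-1-positive cells held 0 of 11, 1 of 16 and 0 of 23 cells at 10 TPM.

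The Sca-1-positive dKO cells with Ly6c1 also had keratinocyte RNA. All 9 at 10 TPM or more had at least 10 TPM of Ly6a (41.4 to 372 TPM), Ly6e (33.6 to 367 TPM), Krt5 (812 to 2310 TPM), Krt14 (1443 to 5888 TPM) and Itga6 (26.2 to 166.8 TPM), and 8 had Ly6d. Most other cells of the group had them too. Of all 19 cells 17 reached 10 TPM of Ly6a and of Ly6e, 19 of Krt5 and of Krt14, and 18 of Itga6 and of Ly6d. None of the 9 reached 10 TPM of Cd34, Krt79, Ptprc, Cd74, Pecam1, Cdh5, Col1a1 or Pdgfra. The rest of the group was much the same. Of all 19 cells 1 reached 10 TPM of Krt79, 1 of Cd74 and 0 of the other genes just named. Other follicle markers did reach it, Krt15 in 8 of the 9, Lrig1 in 5 and Plet1 in 2. Among all 19 Sca-1-positive dKO cells these genes reached it in 17, 7 and 5. Over the 19 Sca-1-positive dKO cells 9 of 12 endothelial markers, including Cdh5, Kdr and Tie1, and 12 of 15 immune markers, including Ptprc and Tyrobp, were at 0 in every cell. The summed endothelial list ran from 0 to 7.03 TPM per cell there and from 0 to 1.75 TPM in Sca-1-positive cKO cells, and the summed immune list from 0 to 37.8 TPM and from 0 to 590 TPM. In the same dKO cells the summed fibroblast list reached up to 66.9 TPM, the melanocyte list 366 TPM and the Schwann list 92.5 TPM. The sebaceous list ran from 2.69 to 80.6 TPM, and the Merkel and erythroid lists were at 0. Of the fibroblast list Thy1 was past the size rule upward between the dKO gates, and Col1a1 and Fbln1 downward.

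Ly6c1 was read almost only beside Ly6a. Of the cells at 10 TPM of Ly6c1, 1 cell of cKO plate 2 was below 10 TPM of Ly6a. Of cells with at least 50 TPM of Ly6a, 7 of 14 Sca-1-positive dKO cells also had Ly6c1, against 1 of 11 Sca-1-positive cKO cells. In Sca-1-negative cells these were 1 of 11, 2 of 9 and 1 of 8 on the cKO plates and 4 of 23 and 0 of 10 on the dKO plates. Differences between these groups were not tested. The part of shared reads in these values was not tested, and with Ly6c1, Ly6c2 and Ly6i added to Ly6a the log2 gate ratio was 1.59 in cKO and 2.70 in dKO.

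**Figure D3:**
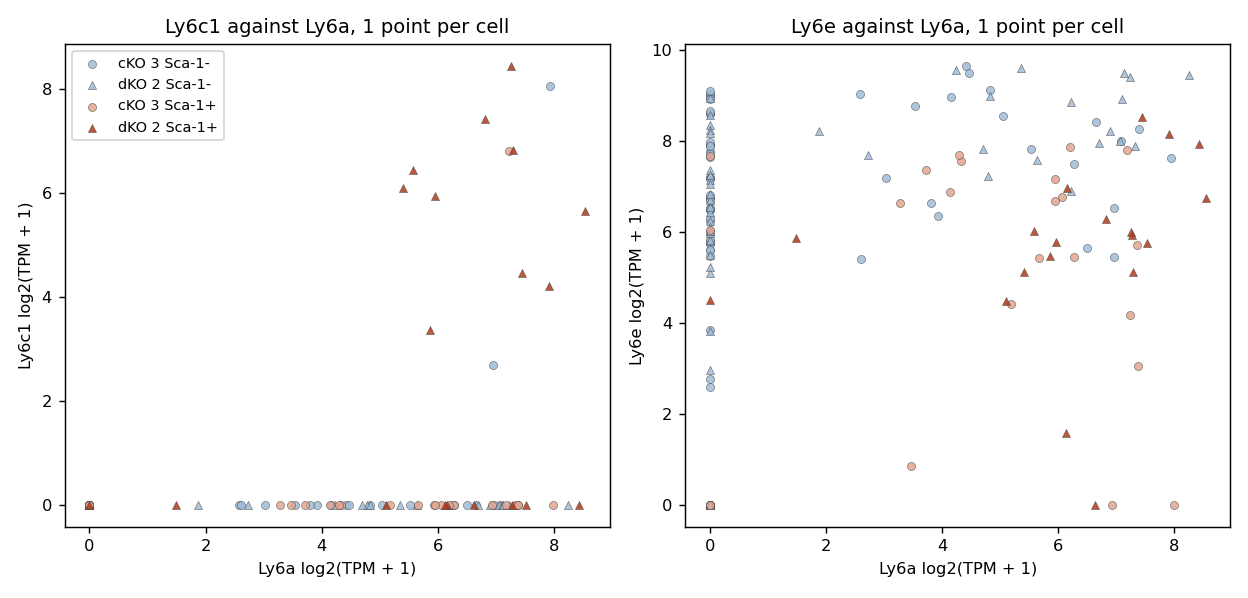
Ly6c1 (left) and Ly6e (right) on the vertical axes against Ly6a on the horizontal axes, all as log2(TPM + 1), 1 point per cell of cKO plate 3 (circles) and dKO plate 2 (triangles), blue for Sca-1-negative and red tones for Sca-1-positive. The 10 Sca-1-positive dKO cells with Ly6c1 all have Ly6a RNA, as do 18 of all 19 cells of that group. Over all groups drawn, most cells with Ly6a have no Ly6c1.

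For Ly6a the comparison of Sca-1-positive cells between genotypes stayed under the size rule. The mean was 124.6 TPM in dKO and 68.4 TPM in cKO, a log2 ratio of 0.86, and values overlapped from 0 to 254 TPM. It passed the rule upward on the scale of mean log2 (a difference of 1.21), without the highest 5% of cells (1.02) and with the copies added (1.23). The ratio depends on the filter on cells: 1 Sca-1-positive cKO cell with 63 genes, left out here, held 7104 TPM of Ly6a, and with all cells kept the log2 ratio was -1.58.

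Ly6d RNA was found in more Sca-1-positive than Sca-1-negative cells at a similar level per cell. In Sca-1-positive cells the lowest, median and highest values were 14.2, 184.99 and 862 TPM for cKO, and 0, 171.8 and 750 TPM for dKO. In the Sca-1-negative cells of the same plates they were 0, 143.9 and 1329 TPM and 0, 77.3 and 594 TPM. The share at 10 TPM was 100% (84.6% to 100%) against 72.3% (59.8% to 82.7%) in cKO, and 94.7% (73.97% to 99.9%) against 57.4% (44.1% to 70.0%) in dKO. Neither mean ratio reached 2, with log2 0.27 and 0.62, while mean log2(TPM + 1) was higher by 1.58 and 2.36. Among cells above 0, the Sca-1-positive cell was higher in 46.97% and 46.5% of pairs. With well rows C and D alone as the Sca-1-negative cells of cKO plate 3 the log2 ratio turned to -0.28. On plates of Sca-1-negative cells alone, the share at 10 TPM also varied by well row. Rows A and B against other rows gave 81.8% against 58.3% on cKO plate 1 and 75% against 67.7% on cKO plate 2. On dKO plate 1 they gave 69.6% against 68.6%. The part of well row in the Ly6d gate difference was not tested.

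Ly6e ran the other way in level. Its mean was 92.5 TPM in Sca-1-positive and 198 TPM in Sca-1-negative cells of cKO plate 3, and 90.1 and 177.7 TPM on dKO plate 2. The lowest, median and highest values were 0, 82.5 and 234 TPM against 0, 106.6 and 806 TPM for cKO, and 0, 57.2 and 367 TPM against 0, 92.5 and 781 TPM for dKO. In cKO 22 Sca-1-negative cells and in dKO 10 stood above the highest Sca-1-positive cell. The log2 ratio was -1.09 in cKO, where the mean log2 difference of -0.96 fell just short of the size rule, and -0.97 in dKO.

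In dKO the signs of the Ly6e measures differed. The share of cells at 10 TPM was 89.5% in the Sca-1-positive and 70.5% in the Sca-1-negative gate, and the mean log2 difference was 0.33 upward while the ratio of means was below 1. Among cells above 0 the Sca-1-positive cell was higher in 32.2% of pairs in cKO and 23.7% in dKO. In cKO the rule was met downward without the highest 5% of cells, without cells bearing markers of other cell types, with all cells kept and with rows C and D alone. With rows C and D alone the dKO log2 ratio was -0.18.

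**Figure D4:**
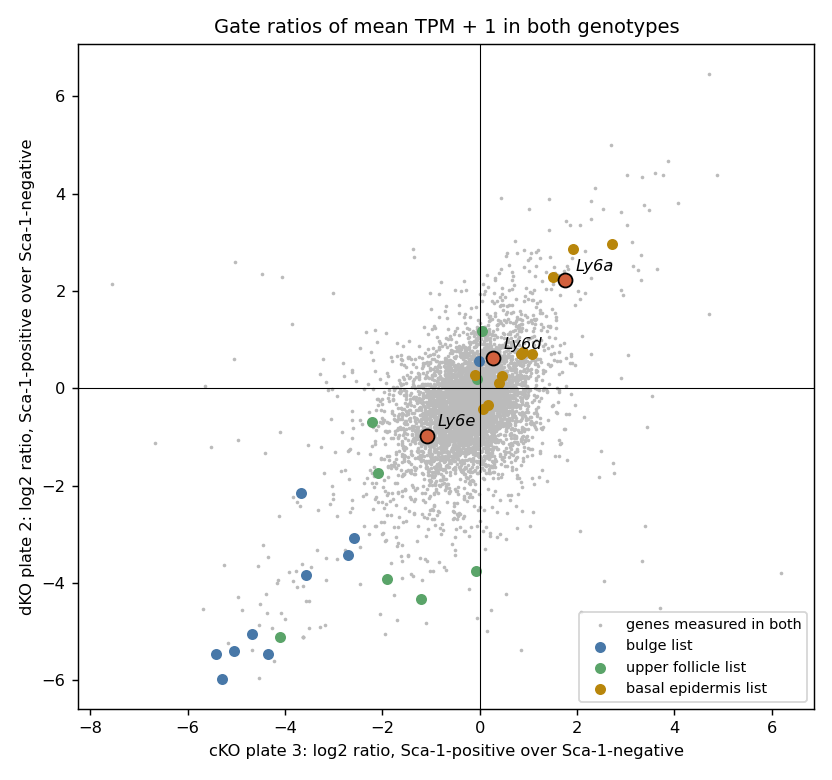
Log2 ratio of mean TPM + 1 between Sca-1-positive and Sca-1-negative cells in cKO (horizontal axis) and dKO (vertical axis), 1 grey point per gene measured in both, with 3 members in orange and 3 marker lists coloured. Ly6a lies at 1.75 and 2.22, Ly6d at 0.27 and 0.62 and Ly6e at -1.09 and -0.97; Ly6c1 was not measured in cKO and is not drawn.

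Between genotypes in Sca-1-negative cells none of the 4 members passed the rule of a 1.5-fold ratio with no overlap between plates. Of measured genes 1.77% passed it upward and 3.95% downward. Of those past it 30.9% were higher, against 56.5% with size factors and 60.1% after removing spike-in RNAs with the 5 most abundant genes and rescaling. Averaged over plates, Ly6a was at 29.1 TPM (SD 16.01, n = 3 plates) in cKO and 28.4 TPM (SD 3.48, n = 2 plates) in dKO, and Ly6e at 181.9 TPM (SD 47.3) and 180.7 TPM (SD 4.29). By their Xist and Y-linked RNA, cKO plate 3 came from another animal than cKO plates 1 and 2, and dKO plate 2 from another than dKO plate 1. Whether cKO plates 1 and 2 share an animal is not known. These SDs therefore show plate, animal and sex differences together.

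Ly6d averaged 152.9, 233 and 221 TPM on cKO plates 1 to 3, and 161.1 and 137.8 TPM on dKO plates 1 and 2. The dKO plates were lower than cKO plates 2 and 3, and cKO plate 1 lay between the dKO plates. The log2 ratio was -0.43 over all plates, -0.26 on the plates with Xist RNA and -0.68 on those with Y-linked RNA. Without cKO plate 1 it passed the rule downward, a setting in which 6.11% of measured genes did so, against 3.95% with all plates. On the plates with Y-linked RNA, 1 per genotype, the condition of no overlap asks only for a lower mean. No call is therefore given there. The corresponding log2 ratios on plates with Xist and with Y-linked RNA were -0.13 and 0.38 for Ly6a and 0.08 and -0.16 for Ly6e. For Ly6c1, which was below the level needed to count as measured, the plate means of both genotypes overlapped.

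In Sca-1-positive cells Ly6d and Ly6e also stayed under the rule between genotypes. The log2 ratio of dKO to cKO was -0.32 for Ly6d and -0.04 for Ly6e, and the values of both genotypes overlapped.

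The members varied together within the Sca-1-negative gate to different degrees. Spearman's rho over the cells of a plate averaged 0.57 for Ly6d and Ly6e over 5 plates, from 0.47 to 0.65, and 203 cells had 10 TPM of both. For Ly6a and Ly6e it was 0.48, from 0.30 to 0.68, with 100 cells at 10 TPM of both, and for Ly6a and Ly6d 0.23, from 0.05 to 0.34. Ly6c1 had a rho of 0.34 with Ly6a over the 4 plates where it was read, resting on 10 cells with both, and of 0.00 and 0.09 with Ly6d and Ly6e. Given the number of genes detected, the first 3 became 0.55, 0.45 and 0.21. Cells of a plate share processing and depth, so these values are descriptions.

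Within the Sca-1-positive gate the pattern was not the same. Ly6d and Ly6e had a rho of -0.18 over 22 cKO cells and -0.30 over 19 dKO cells. Ly6a and Ly6e had -0.21 in cKO and 0.56 in dKO. With so few cells these are weak descriptions, and the difference between gates was not tested.

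The genes most like each member were sought among 1691 genes with at least 20 TPM and with 10 TPM in at least 25% of Sca-1-negative cells. Nearest to Ly6a were Krt14, a basal keratin, with a mean rho of 0.49, then Ly6e, the epidermal chemokine gene Ccl27a at 0.41, the interferon-inducible Ifitm3 at 0.40 and the MHC class I gene H2-Q4 at 0.40. The median over eligible genes was 0.04. Nearest to Ly6e were B2m, the light chain of MHC class I, at 0.68, Clca3a2 at 0.65, H2-Q7 at 0.65, Ifitm3 at 0.61 and H2-Q6 at 0.61. Nearest to Ly6d were Clca3a2 at 0.69, the aryl hydrocarbon receptor gene Ahr at 0.60, the desmosomal plakophilin gene Pkp1 at 0.60, Nebl at 0.58 and Ly6e. H2-Q and Clca genes have near-identical copies, so their values are uncertain.

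**Figure D5:**
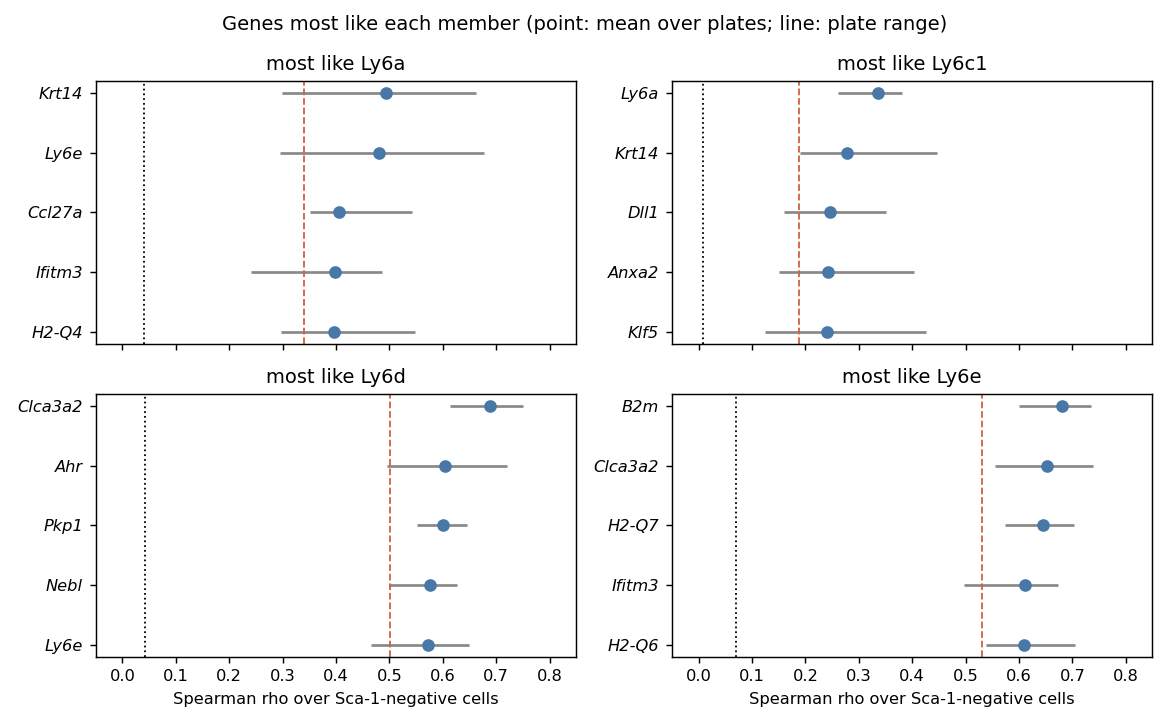
Spearman's rho over Sca-1-negative cells (horizontal axis) between each member and its 5 most similar genes (vertical axis); points are means over plates, grey lines the range over plates, the dotted line the median over eligible genes and the dashed line the level that 1 in 100 of them exceed. Ly6e and B2m reach 0.68 and Ly6d and Clca3a2 0.69, while the Ly6c1 values stay at or below 0.34.

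Ly6c1 gave low values, with Ly6a at 0.34, Krt14 at 0.28, the Notch ligand gene Dll1 at 0.25, Anxa2 at 0.24 and Klf5 at 0.24, and in so sparse a gene they carry little weight. At the other end Cd34 had a rho of -0.40 with Ly6a, -0.60 with Ly6d and -0.56 with Ly6e. Lrig1, a marker of junctional zone cells, had 0.52 with Ly6d, 0.49 with Ly6e and 0.15 with Ly6a. Ly6d and Ly6e RNA thus lay on the side of the Sca-1-negative cells with high Lrig1 and low Cd34.

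The gates differed in more than the members. Of all measured genes, against which the list counts stand, 3.00% in cKO and 4.29% in dKO were past the size rule upward and 5.80% and 10.4% downward. Of the bulge list 9 of 10 measured genes in cKO and 11 of 12 in dKO were past the size rule downward in Sca-1-positive cells, with a median log2 ratio of -4.00 and -4.28 against -0.15 and -0.30 over all measured genes. Cd34 averaged 0.362 against 44.3 TPM in cKO and 0.165 against 48.4 TPM in dKO, and Ctgf and Cd200 were listed at 0 in every Sca-1-positive cell. Of the upper follicle list 7 of 10 genes in cKO and 5 of 8 in dKO were lower, among them Krt79 (45.2 against 171.1 TPM in cKO) and Lrig1 (13.5 against 60.8 TPM), and Lgr6 was higher in dKO. Of the basal epidermis list 3 of 10 were higher in both genotypes, Krt14 and the metallothionein genes Mt1 and Mt2. Krt14 averaged 2294 against 806 TPM in cKO and 2821 against 577 TPM in dKO. Of the suprabasal differentiation list 0 of 10 measured genes were past the rule in cKO, while in dKO 3 of 7 were higher and 1, Sbsn, was lower. Krt1, an early differentiation keratin, averaged 271 against 158.1 TPM in cKO and 255 against 36.1 TPM in dKO. Krtdap had log2 ratios of 0.05 and -0.56, under the rule. Their part in the differences of the members between gates was not tested.

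Of genes that build or remodel the GPI anchor on which Ly6 proteins depend, 19 of 20 measured genes met the rule in neither direction in either genotype, with a median log2 ratio of 0.00 in cKO and -0.28 in dKO. These counts are near the shares of all measured genes given with the marker lists. Pign, which modifies a mannose of the anchor, was lower in both, at 3.88 against 9.68 TPM in cKO and with a log2 ratio of -2.34 in dKO. Between genotypes 1 of 22 measured genes, Pgap3, was higher in dKO in the Sca-1-negative gate, against 1.77% of all measured genes. In the Sca-1-positive gate it was 1 of 17, Gpaa1, against 3.11%. Such small counts cannot be set apart from these shares.

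Of the interferon response list 1 of 12 measured genes, the immunoproteasome gene Psmb9, was higher in Sca-1-positive cKO cells and 0 of 12 in dKO, against 3.00% and 4.29% of all measured genes. Counts this small cannot be set apart from those shares. The medians of 0.40 and 0.31 lay above those of all measured genes. B2m averaged 591 against 443 TPM in cKO and had a log2 ratio of 0.43 in dKO, under the rule. Ifitm3 had log2 ratios of -0.29 and 0.70. Between genotypes Psmb9 was lower in dKO in the Sca-1-positive gate, a comparison in which 4.17% of all measured genes passed the rule downward.

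Other genes of the Ly6 and urokinase receptor superfamily, 31 of 34 of which had a row, were mostly too low to compare. In the gate comparisons 3 were measured in cKO and 4 in dKO, and 0 met the rule. Ly6g6c averaged 31.1 against 79.8 TPM in cKO and had a log2 ratio of -2.28 in dKO, and its mean log2 differed by -0.57 and -0.43. Lypd3, a keratinocyte member, had log2 ratios of -0.52 and 0.46.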

How the data were processed

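Single cells were sorted into plates and amplified by Smart-seq2, without strand information or molecular identifiers. The deposited values are TPM, made with RSEM 1.2.30 and Bowtie2 2.2.9 on mm10 (GRCm38), per the submitters' processing notes. Which annotation they used is not given in the sources. Of all rows 92 are ERCC spike-in RNAs. TPM keeps no read depth, so genes detected stand in for it.

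Cells were grouped by their genotype and sorting labels and the plate in their title. From the deposited TPM, ratios used means over cells plus 1 TPM as a pseudocount, so differences of low genes are understated; plates of a genotype had equal weight. A gene counted as measured at a mean of at least 5 TPM over the groups or plates compared. Size rules are not tests. They were run on data simulated from a single pool of Sca-1-negative cells, with changes larger than the rules ask for in abundant genes. That setting holds no differences between plates or gates, so it cannot show how the rules behave across plates or near their limits. Shares used exact (Clopper-Pearson) intervals, and a share of 0 the limit that 3 positive cells would give. The members, gene lists and rules were chosen with earlier results of these data known. Named genes are the members, the 5 genes most like each, and of each list up to 4 members past the rule in both genotypes or otherwise the 2 most abundant; the remaining list genes named, and Krt5, Itga6, Lrig1 in correlations, Ptprc, Pecam1 and the like, were chosen after their values were seen; 1 gene of the interferon list is not reported here. Alternatives were other pseudocounts, filters on cells and genes, scalings, ratios and plates left out. No doublet caller was run on these singly sorted cells. Python 3.11.15, pandas 2.3.3 and SciPy 1.17.1 were used.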

Additional observations from a re-analysis of the deposited data

How the results depend on the processing

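Alternatives moved the log2 ratios of the members by more than the pooled SD over plates in 16 cases, and 0 turned a ratio past the size rule to the other direction. With all cells kept, the Ly6a gate ratio in cKO was 4.20, its genotype ratio in Sca-1-positive cells -1.58 and the Ly6d genotype ratio in Sca-1-negative cells -1.07; cells with under 1000 genes held up to 7104 TPM of Ly6a and 23181 TPM of Ly6d. Without the highest 5% of cells the Ly6a gate ratio was 2.33 in cKO and 2.84 in dKO. As a difference of mean log2 it was 3.34 and 4.44, the Ly6d gate ratio 1.58 and 2.36, the Ly6e gate ratio in dKO 0.33, the genotype ratio of Ly6c1 in Sca-1-negative cells -0.17, and those of Ly6d and Ly6e in Sca-1-positive cells -0.64 and 0.35. With rows C and D alone, the Ly6d gate ratio in cKO was -0.28 and the Ly6e gate ratio in dKO -0.18. With a pseudocount of 10 TPM the Ly6c1 genotype ratio in Sca-1-positive cells was 1.98. The cause of these shifts was not tested. No value is given for the Ly6c1 gate ratio in dKO or for any setting in which a group is listed at 0 for Ly6c1. No paired analysis was possible because the labels tie no plate of one genotype to a plate of the other.

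The background percentages of measured genes past the size rule moved by over 1.5 times under 59 alternatives. They are given as higher and lower genes in the order gate in cKO, gate in dKO, genotype in Sca-1-negative and genotype in Sca-1-positive cells, where they were 3.00% and 5.80%, 4.29% and 10.4%, 1.77% and 3.95%, and 3.11% and 4.17%. With a pseudocount of 10 TPM they were 1.16% and 2.35%, 2.27% and 4.68%, 0.652% and 1.2%, and 0.851% and 1.34%. At a ratio of 3 they were 1.27% and 3.22%, 2.19% and 6.37%, 0.255% and 0.312%, and 1.26% and 1.84%. With no filter on genes they were 0.505% and 0.939%, 0.707% and 1.74%, 1.12% and 1.51%, and 0.501% and 0.651%. Rescaling without spike-in and the 5 most abundant rows gave 4.74% higher in Sca-1-negative and 4.95% and 7.002% in Sca-1-positive cells. Size factors gave 6.51% and 6.401% for the gate in dKO and 2.73% and 2.10% in Sca-1-negative cells. The median log2 ratio of all measured genes moved from -0.30 to -0.07 for the gate in dKO with size factors and from -0.12 to 0.00 between genotypes in Sca-1-negative cells after rescaling. The lower ratios gave 5.21% higher for the gate in cKO, 0.637% and 1.23% in Sca-1-negative and 4.97% higher in Sca-1-positive cells. Differences of mean log2 gave 6.84% and 7.44% higher for the gates, 1.84% lower in Sca-1-negative and 6.28% and 6.35% in Sca-1-positive cells. Without the highest 5% of cells there were 9.38% lower for the gate in cKO, 7.69% higher for the gate in dKO, and 2.89% and 7.90% higher in Sca-1-negative and Sca-1-positive cells. At a mean of at least 20 TPM there were 6.73% higher for the gate in dKO and 2.38% lower in Sca-1-positive cells. Rows C and D alone gave 5.22% higher for the gate in cKO. Between genotypes in Sca-1-negative cells, plates with Xist RNA gave 2.74% and 14.9%, plates with Y-linked RNA 13.3% and 10.2%, and leaving out 1 plate in turn 2.04% to 6.50% higher and 5.03% to 10.4% lower.

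Shares of cells, label separations, correlations and likeness values left their interval or spread in 18 of 188 alternatives. Ly6d against Sca-1 in cKO went from 58.4% to 40.5% of pairs with rows C and D alone.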
